A study of Mus musculus with 8 samples.

Results

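The genes described here are 42 listed genes of the vesicle coats, ADP-ribosylation factors (ARFs) and cargo receptors that carry proteins between the endoplasmic reticulum (ER) and the Golgi. They were picked by gene symbol, and the list was drawn up with earlier results of these data known. The count files hold 23337 gene symbols, and 41 of the 42 listed symbols are among them. *Copg1* was absent under that symbol and was skipped. The files list *Copg*, an older name of *Copg1* in RefSeq, which is not counted below. The 41 members fall into 14 COPII coat genes, 8 COPI coat genes, 7 ARF genes including the ARF activator *Gbf1*, 3 KDEL receptors, 5 p24 cargo receptors and 4 SNAREs.

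Liver RNA was sequenced from C57BL/6 mice aged 12 weeks, with 2 samples in each of 4 groups. WT mice either stayed fasted overnight or received food for 4 h after such a fast, and mice labelled Hrd1-/- were treated in the same 2 ways. The study calls the latter HRD1Alb mice: a Cre recombinase under the albumin promoter, which is active in hepatocytes, deletes a floxed Hrd1 gene from early liver development on. HRD1, listed in the files as *Syvn1*, is an E3 ubiquitin ligase of the ER membrane that marks misfolded proteins for degradation. The sources used here do not say whether the 2 samples of a group came from separate mice, so the p-values measure only the spread between these samples. Whole liver was sequenced, so fewer cells of a type and less RNA per cell cannot be told apart.

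Proteins leave the ER in vesicles wrapped in the COPII coat. The small GTPase SAR1 opens coat assembly, SEC23 and SEC24 form the inner layer that selects cargo, and SEC13 and SEC31 form the outer cage. Vesicles with the COPI coat, recruited by ARF GTPases, return receptors and escaped ER proteins from the Golgi. KDEL receptors catch ER chaperones that have leaked forward, p24 proteins of the TMED family carry cargo in both directions, and SNAREs fuse the vesicle with its target. Hepatocytes secrete most plasma proteins and lipoproteins through this route, and several of its genes are textbook targets of the unfolded protein response.

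Promoter windows were read for motifs known from that response. RefSeq windows on GRCm38.p6, from 250 bases before to 50 bases after a start site, were given for 36 of the 41 members. The letters TGACGTG, the core of a binding site for factors of the unfolded protein response, occurred on either strand in the windows of 9 of the 36 members (25%) and in 2.22% of the 27025 genes with a window. The 9 were *Arf1*, *Copb1*, *Copb2*, *Gbf1*, *Kdelr3*, *Sec16b*, *Sec23a*, *Sec24d* and *Stx5a*. The cAMP response element TGACGTCA, which shares its first 6 letters with that core, occurred in 2 of the 36 members (5.56%), *Cope* and *Gosr2*, and in 2.03% of all genes. The ER stress response element, CCAAT followed after 9 bases by CCACG, occurred in 0 of the 36 members and in 0.137% of all genes. These matches are a description of letters and were not tested against the expression values. 3 windows with the core and the window of *Arf4*, which has none of the 3 motifs, are printed. They were chosen by their expression results. *Kdelr3* and *Arf4* differed most between genotypes, and *Copb2* and *Arf1* are coat and ARF genes called in refed liver. The coat genes *Cope*, *Sar1a* and *Sec13* were called there too and are not among the 9. The other members with the core, *Copb1*, *Gbf1*, *Sec16b*, *Sec23a*, *Sec24d* and *Stx5a*, were not called in any comparison of the edgeR fit of all samples. The choice of windows is therefore no sign of a link between the core and the calls. Capitals mark TGACGTG or, on the other strand, CACGTCA.
Kdelr3, chr15:79516158-79516457, plus strand: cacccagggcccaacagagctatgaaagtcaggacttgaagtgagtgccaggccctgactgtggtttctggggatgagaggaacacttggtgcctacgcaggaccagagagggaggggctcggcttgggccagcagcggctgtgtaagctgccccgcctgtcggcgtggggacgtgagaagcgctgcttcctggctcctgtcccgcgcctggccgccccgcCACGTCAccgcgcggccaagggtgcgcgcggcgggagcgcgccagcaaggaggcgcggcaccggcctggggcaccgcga
Copb2, chr9:98563481-98563780, plus strand: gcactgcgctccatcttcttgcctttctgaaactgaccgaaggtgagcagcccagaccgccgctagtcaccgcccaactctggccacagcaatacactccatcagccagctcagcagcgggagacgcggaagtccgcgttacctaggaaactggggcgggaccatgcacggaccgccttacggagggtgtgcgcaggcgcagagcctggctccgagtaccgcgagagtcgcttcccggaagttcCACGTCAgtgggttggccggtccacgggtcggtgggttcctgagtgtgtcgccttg
Arf1, chr11:59228113-59228412, minus strand: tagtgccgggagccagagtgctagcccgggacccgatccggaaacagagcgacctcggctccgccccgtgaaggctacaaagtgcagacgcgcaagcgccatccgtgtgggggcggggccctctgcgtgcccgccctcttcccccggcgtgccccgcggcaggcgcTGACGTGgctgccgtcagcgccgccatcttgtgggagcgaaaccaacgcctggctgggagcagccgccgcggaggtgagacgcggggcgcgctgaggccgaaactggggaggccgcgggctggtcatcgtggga
Arf4, chr14:26637884-26638183, plus strand: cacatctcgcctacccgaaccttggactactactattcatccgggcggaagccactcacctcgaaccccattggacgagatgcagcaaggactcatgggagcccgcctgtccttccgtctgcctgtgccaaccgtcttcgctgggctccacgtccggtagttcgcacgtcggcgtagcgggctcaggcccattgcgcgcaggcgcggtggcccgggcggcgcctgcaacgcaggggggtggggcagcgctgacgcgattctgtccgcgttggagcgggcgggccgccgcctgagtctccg
The core began 29 bases before the start site in *Kdelr3*, 6 bases before it in *Copb2* and 84 bases before it in *Arf1*. A second start site of *Arf1* has a window that covers the same copy, which begins 21 bases after that site.

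Total counts per sample ranged from 40210576 to 49117080, and 3 counts correspond to 0.0611 to 0.0746 CPM before normalization. All values below are TMM-normalized CPM, the count scaled to a library of fixed size after a correction for differences in RNA makeup. Of the 23337 genes, 14328 passed the filter on low counts, and all 41 members were among them. Fold changes, standard errors (SE) and p-values came from edgeR's quasi-likelihood test, with Benjamini-Hochberg adjustment across all 14328 genes, and a gene was called at an adjusted p under 0.05. Because 2 samples against 2 cannot give an exact permutation p below 0.333, the calls rest on the spread shared across genes. As a check of the labels, *Syvn1* stood at 111 and 99.8 CPM in fasted WT liver and at 32.6 and 31.5 CPM in fasted HRD1Alb liver. In refed liver it stood at 637 and 305 CPM in WT and at 453 and 132 CPM in the libraries labelled HRD1Alb, so that the library labelled HRD1Alb refed 1 lay above one WT sample and the groups overlapped. The genotype difference of *Syvn1* was not called in fasted liver (log2 fold change -1.72, adjusted p = 0.170) or in refed liver (-0.69, adjusted p = 0.391, and -0.06 without HRD1Alb refed 2). The paper reports that HRD1 mRNA and protein were eliminated in HRD1Alb liver. Counts per gene can include exons outside the deleted part, but whether such reads account for the overlap was not tested. The directions given for refed HRD1Alb liver rest on the labels.

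Markers of other cells moved with genotype. The summed level of 6 hepatocyte markers ranged from 111300 to 148400 CPM in WT and from 62260 to 101200 CPM in HRD1Alb libraries. The 5 Kupffer cell and macrophage markers found in the files summed to 85.9 to 102 CPM in WT and 191 to 395 CPM in HRD1Alb libraries, and 5 of 5 were called higher in refed liver. The 6 stellate cell markers summed to 160 to 342 CPM in WT and 326 to 437 CPM in HRD1Alb libraries. Markers of sinusoidal endothelium summed to 83.7 to 107 CPM over the 8 libraries, close to the Kupffer cell and macrophage sums of WT. Those of cholangiocytes (29.1 to 68.4 CPM), neutrophils (2.05 to 11.3 CPM), acinar cells (5.63 to 18.7 CPM) and T and B cells (2.02 to 5.15 CPM) had lower sums. Some of these lists still moved with genotype. 4 of 4 neutrophil markers had a refed log2 fold change above 0 (median 1.51), 5 of 5 cholangiocyte markers lay below 0 in fasted (median -0.88) and above 0 in refed liver (0.46), and 4 of 5 T and B cell markers lay above 0 under both conditions (0.86 and 0.66). Of 4 plasma cell markers only *Derl3*, also a gene of ER-associated degradation, and *Tnfrsf17* are in the files, and they summed to 3.14 to 66.6 CPM in WT and 69.7 to 499.5 CPM in HRD1Alb libraries, with at most 5 counts of *Tnfrsf17* in a library. Of the other markers, *Cd68* was called higher in fasted liver, and *Des*, *Col1a1* and *S100a9* higher and *Apob* lower in refed liver. The part of these cells in the member values was not tested.

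1 library stood apart. In the group labelled HRD1Alb refed, the ratio of replicate 2 to replicate 1 fell with exon length, with a Spearman's rho of -0.67 across the 41 members and -0.51 across 12968 genes with a known length, a description across genes that are not independent. The members of this group ranged from *Sec31b*, at a log2 ratio of -2.04, and *Sec24d*, at -1.67, to short genes with a ratio above 0. In the other groups rho across members lay between -0.57 and -0.22, with far smaller ratios. Members more than 2-fold apart between replicates numbered 4 in refed HRD1Alb liver (*Sec31b*, *Sec24d*, *Copg2* and *Sec23a*), against 20% of all genes. In fasted WT liver it was 1 (*Kdelr3*), against 5.44%. These shares are of the 12968 genes with a known length. Values without replicate 2 or with a correction for length are therefore given beside the refed HRD1Alb results that they change. Without this library edgeR called more genes in every comparison, 9.66% of all genes higher and 11.6% lower in fasted liver, although no fasted sample was left out.

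**Figure D1:**
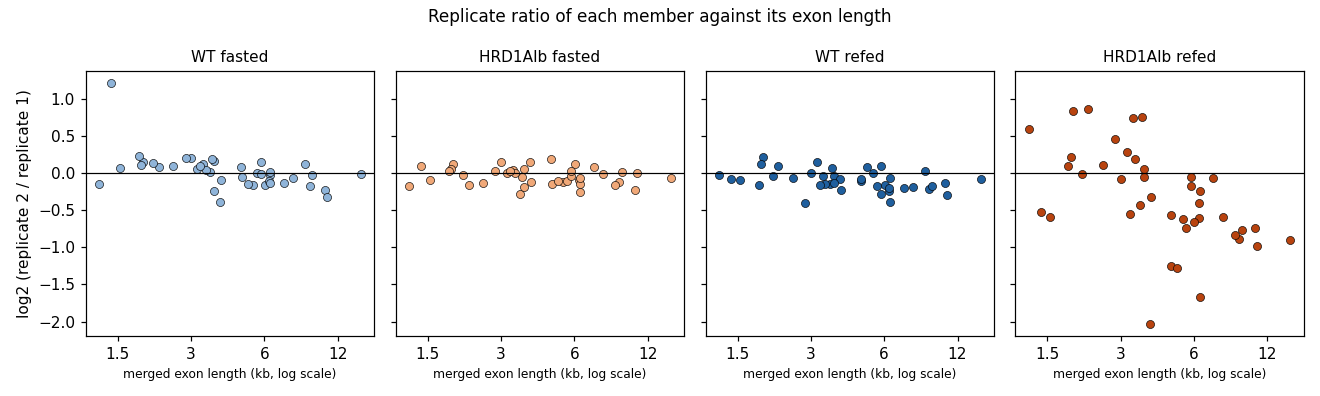
The log2 ratio of replicate 2 to replicate 1 (vertical axis, computed on CPM plus 0.1) against merged exon length in kb (horizontal log axis) for the 41 members, 1 point per gene and 1 panel per group. In refed HRD1Alb liver the points fall with length to -2.04 for Sec31b, while most points of the other groups lie close to 0.

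Summed over the 41 members, the level was 4993 and 4929 CPM in fasted WT and 7485 and 6969 CPM in fasted HRD1Alb liver. In refed liver the sums were 5439 and 5044 CPM in WT and 7164 and 5961 CPM in the libraries labelled HRD1Alb. Both HRD1Alb sums lay above both WT sums under each condition, but in refed liver not apart from *Arf4*. WT refed 1 and HRD1Alb refed 2 differed less in the sum (5439 and 5961 CPM) than in *Arf4* alone (277 and 894 CPM). 1 gene, *Arf4*, made up 56.6% of the difference between the group means in fasted and 59.6% in refed liver. Its share of the member sum was 5.84% in fasted WT and 21.8% in fasted HRD1Alb liver, and 5.03% and 16.0% in refed liver. COPI genes summed to 1220 and 1243 CPM in fasted WT, 1724 and 1676 CPM in fasted HRD1Alb, 1257 and 1187 CPM in refed WT and 1731 and 1548 CPM in refed HRD1Alb liver, and the genotypes did not overlap under either condition. COPII genes summed to 2077 and 1931 CPM in fasted WT and 2280 and 2141 CPM in fasted HRD1Alb liver, whereas in refed liver one HRD1Alb sum (2124 CPM) lay between the WT sums (2183 and 1979 CPM) and the other, of replicate 2, was 1583 CPM.

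**Figure D2:**
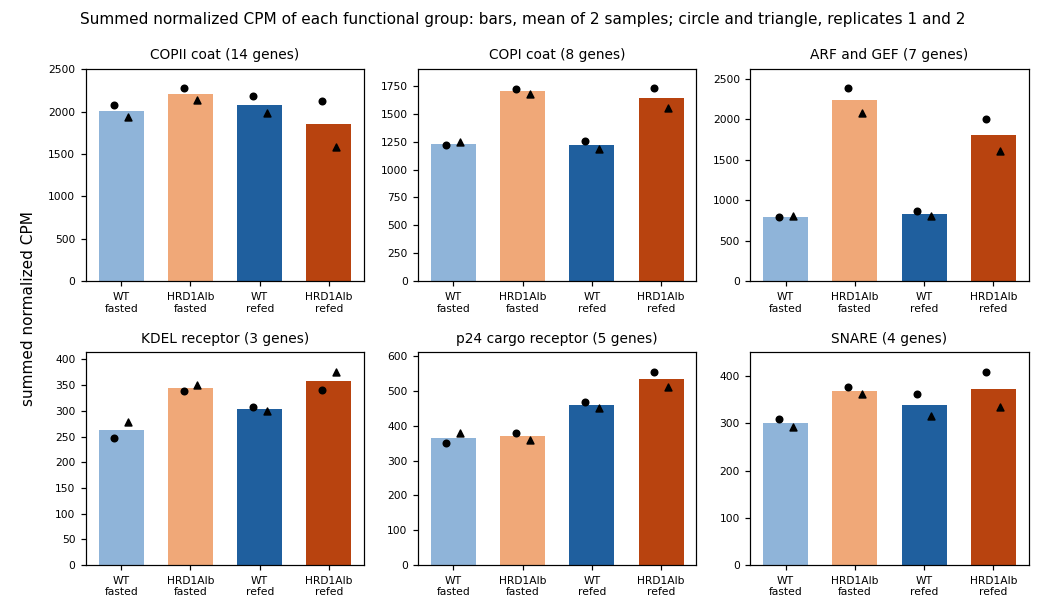
Summed normalized CPM (vertical axis, from 0) of the members of each functional group in the 4 groups of samples. Bars are means of 2 samples, and circles and triangles are replicates 1 and 2. The ARF and COPI sums of HRD1Alb liver lie above both WT samples under each condition, and the p24 sums are higher in refed than in fasted liver.

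In fasted liver, 2 of the 41 members, *Arf4* and *Kdelr3*, were called higher in HRD1Alb than in WT, against 0.921% of all genes tested. At this threshold edgeR called 0 members lower, against 0.433% of all genes, with 1 lower (*Bet1*; 7.43% of all genes) and 12 higher (10.9%) at an unadjusted p under 0.05, and DESeq2 called 7 higher (4.41%) and 0 lower (3.22%). The median log2 fold change was 0.24 over the members and -0.02 over all genes, and 33 of 41 members (80.5%) lay above 0, against 47.8% of all genes. That number was 32 with RLE scaling, 28 with a correction for exon length and 40 with scaling by total counts, which moved the median of all genes to 0.36. The samples of the genotypes did not overlap and HRD1Alb was higher for 28 members (30.6% of all genes), and HRD1Alb was lower without overlap for 7 (34.2% of all genes). The 39 members not called ranged from -0.39 for *Bet1* to 0.94 for *Tmed3*.

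In refed liver, 10 members were called higher in the libraries labelled HRD1Alb: *Arf1*, *Arf4*, *Arf6*, *Copb2*, *Cope*, *Kdelr3*, *Sar1a*, *Sec13*, *Tmed2* and *Tmed3*. Of all genes tested, 7.09% were called higher. edgeR called 0 members lower, against 4.84% of all genes, with 3 lower (*Sec24a*, *Sec16b* and *Copg2*; 14.5% of all genes) and 13 higher (18.8%) at an unadjusted p under 0.05, and DESeq2 called 11 higher (11.9%) and 2 lower (10.4%). The median was 0.15 over the members and 0.04 over all genes, and 25 of 41 (61.0%) lay above 0, against 52.4% of all genes. The genotypes did not overlap for 16 members that were higher (30.7% of all genes) and 6 that were lower (30.1%). Without HRD1Alb refed 2 these numbers were 24 (44.2%) and 7 (42.8%). 16 members were then called higher, against 11.9% of all genes, and 2, *Sar1b* and *Sec16b*, lower, against 11.7%. The same 10 genes were among the 16, with log2 fold changes from 0.47 for *Sec13* to 4.43 for *Kdelr3*. With a correction for exon length 5 were called higher, *Arf4*, *Copb2*, *Cope*, *Kdelr3* and *Tmed3*, against 8.04% of all genes, and 3 lower, *Sar1b*, *Sec24a* and *Sec16b*, against 10.7%. None of the 10 was called in refed liver without WT refed 1 or without WT refed 2, and only *Arf4* and *Kdelr3* were called when any 1 of the 4 fasted libraries was left out.

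**Figure D3:**
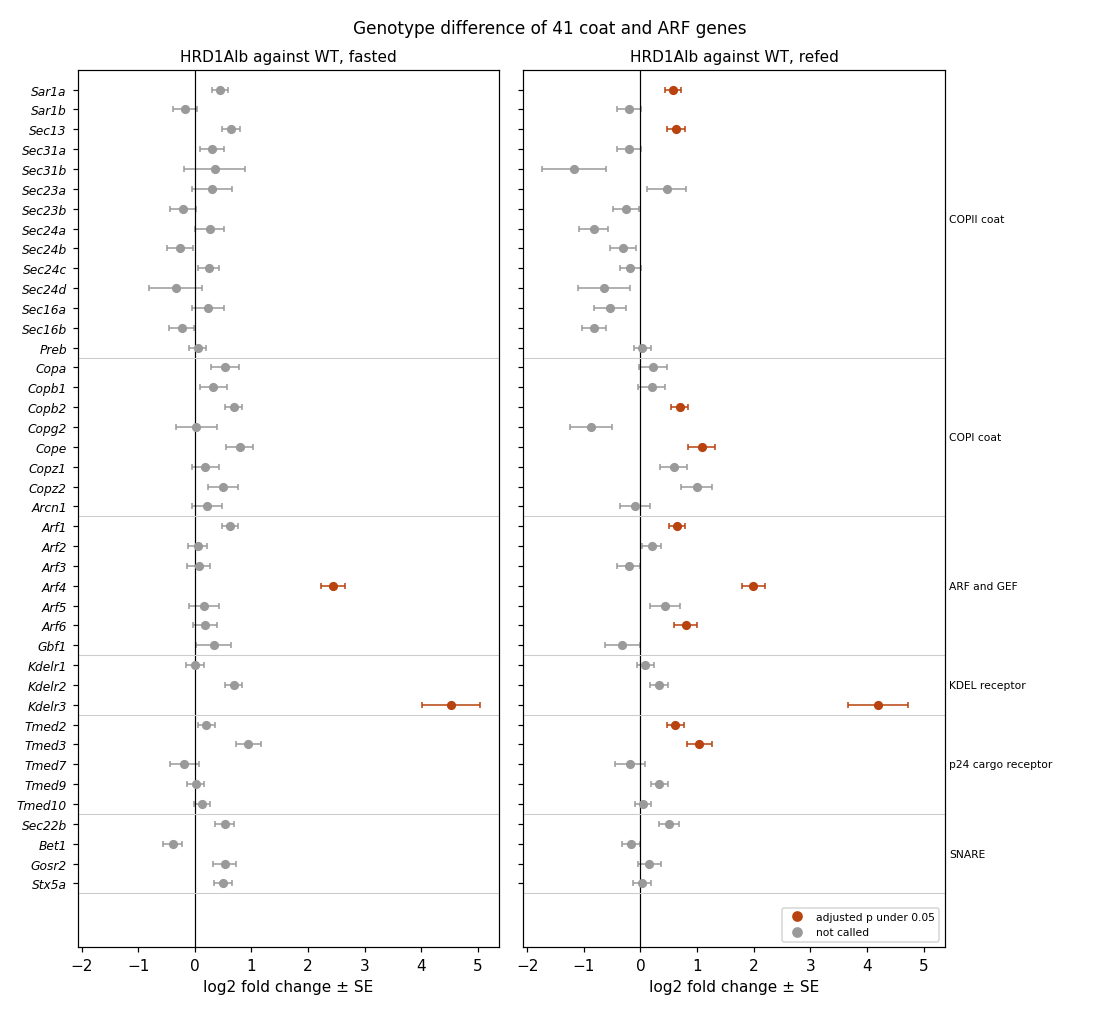
Log2 fold change of HRD1Alb against WT ± SE (horizontal axis) for each member, by functional group, in fasted (left) and refed liver (right), from the edgeR model of 8 samples. Arf4 and Kdelr3, at 2.44 and 4.53, stand out in fasted liver, and in refed liver 10 members are called and the COPII genes lie on both sides of 0.

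*Arf4*, an ARF GTPase of the early Golgi that helps to bring COPI to membranes, gave the largest difference in CPM. It stood at 287 and 292 CPM in fasted WT and at 1728 and 1416 CPM in fasted HRD1Alb liver. In refed liver it stood at 277 and 251 CPM in WT and at 1208 and 894 CPM in the libraries labelled HRD1Alb. All 4 HRD1Alb libraries lay above all 4 WT libraries. The log2 fold change was 2.44 (SE 0.21, adjusted p = 0.0128) in fasted and 1.995 (SE 0.21, adjusted p = 0.00783) in refed liver. Over all settings it ranged from 2.29 to 2.82 in fasted and from 1.76 to 2.24 in refed liver. The fasted call was lost without any 1 of the 4 fasted libraries, with an adjusted p of at most 0.157, and the refed call without any 1 refed WT library. The gene spans chr14:26638074-26665084 on the plus strand in GENCODE M21, and up to 527 bases of its exons are shared with *Pde12* or the antisense gene *Arf4os* on the other strand. Whether the counting used strand is not given in the sources used here, so reads of these genes cannot be told apart. Other members share exon bases too, among them *Preb* (up to 1575 bases), *Copg2* (912) and *Copa* (708) with genes on the other strand. *Tmed7* shares 838 bases with *Ticam2* on the same strand.

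Per kb of merged exon, *Arf1* had the highest level of the 6 ARF genes in fasted WT liver (98.4 CPM per kb), followed by *Arf4* (80.4), *Arf6* (49.1), *Arf5* (26.9), *Arf3* (14.3) and *Arf2* (3.59). In fasted HRD1Alb liver *Arf4* came first, at 436 CPM per kb, before *Arf1* at 151, *Arf6* at 55.5, *Arf5* at 30.02, *Arf3* at 14.9 and *Arf2* at 3.71. The order in refed liver was that of fasted liver in each genotype, with *Arf4* at 292 CPM per kb in HRD1Alb and 73.2 in WT liver, and *Arf1* at 166 and 106.

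*Arf1*, the main ARF for COPI recruitment, stood at 196 and 215 CPM in fasted WT, 318 and 314 CPM in fasted HRD1Alb, 224 and 219 CPM in refed WT and 347 and 346 CPM in refed HRD1Alb liver. The genotypes did not overlap under either condition. Its log2 fold change was 0.62 in fasted liver, where it was not called (SE 0.14, adjusted p = 0.0838), and 0.64 in refed liver (SE 0.14, adjusted p = 0.0334), or 0.32 with the length correction (adjusted p = 0.166). *Arf6*, an ARF of the plasma membrane and endosomes, stood at 73.6 and 77.2 CPM in fasted WT, 87.9 and 82.4 CPM in fasted HRD1Alb, 85.1 and 80.1 CPM in refed WT and 172 and 115 CPM in refed HRD1Alb liver. Both refed HRD1Alb samples lay above the other 6, and the refed fold change was 0.80 on the log2 scale (SE 0.21, adjusted p = 0.0497). It was 0.44 with the length correction (adjusted p = 0.315) and 1.05 without HRD1Alb refed 2. Of the other members of the group, *Arf3*, *Arf5* and *Gbf1* were not called in any comparison of the 8-sample fit, with genotype differences between -0.32 and 0.43 on the log2 scale. Their refed values lay between -0.05 and 0.08 without HRD1Alb refed 2.

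*Kdelr3* is the member with the lowest level and the largest fold change. Its counts were 4 and 15 in fasted WT, 268 and 310 in fasted HRD1Alb, 7 and 6 in refed WT and 215 and 114 in refed HRD1Alb liver. As CPM these are 0.0998 and 0.365, 5.24 and 5.63, 0.173 and 0.158, and 3.64 and 2.50. All 4 HRD1Alb libraries lay well above all 4 WT libraries. The log2 fold change was 4.53 (SE 0.51, adjusted p = 0.0186) in fasted and 4.19 (SE 0.53, adjusted p = 0.0102) in refed liver. With so few WT counts the size of the fold is loosely set, and it ranged from 3.88 to 5.76 in fasted liver over the settings tried. The fasted call was lost without any 1 of the 4 fasted or 2 refed WT libraries, and the refed call without any 1 refed WT library. The gene spans chr15:79516411-79527739 on the plus strand.

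The 3 KDEL receptors were expressed at very different levels. In fasted WT liver *Kdelr1* stood at 73.5, *Kdelr2* at 68.3 and *Kdelr3* at 0.165 CPM per kb, and in fasted HRD1Alb liver at 73.4, 110 and 3.85 CPM per kb. *Kdelr1* was at 127 to 152 CPM in all 8 samples, with genotype differences of 0.00 in fasted and 0.09 in refed liver, the latter -0.28 with the length correction. *Kdelr2* was at 115 and 135 CPM in fasted WT, 198 and 203 CPM in fasted HRD1Alb, 180.5 and 162 CPM in refed WT and 207 and 222 CPM in refed HRD1Alb liver. Its genotypes did not overlap under either condition, but neither difference was called (0.68, adjusted p = 0.0851, and 0.32, adjusted p = 0.188). The fasted one was called without HRD1Alb refed 2 (adjusted p = 0.0102). The refed value was 0.27 without that library, and with the length correction its sign turned, at -0.04 (adjusted p = 0.854). *Kdelr3* was the receptor with the lowest level per kb in all 4 groups.

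Among the COPI genes, which encode the subunits of coatomer, 8 of 8 had a fasted log2 fold change above 0, from 0.03 for *Copg2* to 0.79 for *Cope*, and 7 of 8 with the length correction. In the fit of 8 samples edgeR called none in fasted liver, with *Copb2* and *Cope* under an unadjusted p of 0.05. The length correction called *Copb2* (0.60, adjusted p = 0.0490), and the fit without HRD1Alb refed 2 called *Copa*, *Copb2*, *Cope* and *Copz2* in fasted liver, at values within 0.01 of those with it. *Copb2*, the beta-prime subunit that reads retrieval signals, stood at 245 and 249 CPM in fasted WT, 406 and 389 CPM in fasted HRD1Alb, 225 and 215 CPM in refed WT and 385 and 326 CPM in refed HRD1Alb liver. Its genotypes did not overlap under either condition, with log2 fold changes of 0.69 in fasted (SE 0.15, adjusted p = 0.0799) and 0.69 in refed liver (SE 0.15, adjusted p = 0.0340). *Cope*, the epsilon subunit, stood at 91.2 and 99.5 CPM in fasted WT, 163 and 167 CPM in fasted HRD1Alb, 118 and 115 CPM in refed WT and 184 and 309 CPM in refed HRD1Alb liver. The highest value was that of replicate 2, and the refed log2 fold change of 1.08 (SE 0.24, adjusted p = 0.0347) was 0.66 without that library (adjusted p = 0.00749).

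Of the other COPI genes, *Copa*, *Copb1*, *Copz1*, *Copz2* and *Arcn1* were not called, and their refed differences lay between -0.10 for *Arcn1* and 0.99 for *Copz2* (adjusted p = 0.0558). Replicate 2 moved most of them. Without it *Copa* went from 0.22 to 0.55 (adjusted p = 0.0193) and *Copb1* from 0.20 to 0.51 (adjusted p = 0.0233), and both were called. *Copz2* went to 0.49 and was called (adjusted p = 0.0246), *Copz1* went from 0.59 to 0.16, and *Arcn1* turned to 0.28 (0.23 with the length correction). *Copg2*, the minor form of the gamma subunit, gave a refed value of -0.87 (adjusted p = 0.145), with 16.6 CPM in replicate 1 and 6.75 CPM in replicate 2. Without replicate 2 it was -0.37 (adjusted p = 0.0689). *Copg*, the older name under which the files may list the major form, stood at 121 and 124 CPM in fasted WT, 203 and 196 CPM in fasted HRD1Alb, 164 and 149 CPM in refed WT and 217.5 and 196 CPM in refed HRD1Alb liver. It was not called, at 0.70 (adjusted p = 0.0682) and 0.40 (adjusted p = 0.109), the latter 0.47 without replicate 2 (adjusted p = 0.0242).

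COPII genes did not share a direction. In fasted liver 9 of 14 had a log2 fold change above 0, with a median of 0.24, and edgeR called 0 in the fit of 8 samples, with *Sar1a* and *Sec13* under an unadjusted p of 0.05 and both called without HRD1Alb refed 2. In refed liver 4 of 14 lay above 0, with a median of -0.23, and without HRD1Alb refed 2 it was 7 of 14, with a median close to 0. *Sec13*, a cage protein that also sits in the nuclear pore, stood at 105 and 109 CPM in fasted WT, 165 and 166 CPM in fasted HRD1Alb, 105 and 117 CPM in refed WT and 154 and 188 CPM in refed HRD1Alb liver. All 4 HRD1Alb libraries lay above all 4 WT libraries. Its log2 fold change was 0.63 in fasted (SE 0.16, adjusted p = 0.104) and 0.62 in refed liver (SE 0.16, adjusted p = 0.0478), where the length correction gave 0.43 (adjusted p = 0.0685).

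Of the SAR1 pair, *Sar1a* stood at 106 and 118 CPM in fasted WT, 149 and 156 CPM in fasted HRD1Alb, 116 and 114 CPM in refed WT and 168 and 174 CPM in refed HRD1Alb liver, with all HRD1Alb libraries above all WT libraries. Its log2 fold change was 0.44 in fasted (SE 0.14, adjusted p = 0.167) and 0.58 in refed liver (SE 0.14, adjusted p = 0.0445), or 0.43 with the length correction (adjusted p = 0.0536). *Sar1b*, the form known for the export of large lipoproteins, was the more abundant of the pair, at 210 against 29.99 CPM per kb in fasted WT liver. Its genotype differences were -0.17 in fasted and -0.20 in refed liver and were not called, but with the length correction the refed value was -0.70 (adjusted p = 0.0168), and without HRD1Alb refed 2 it was -0.53 (adjusted p = 0.0274).

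*Sec31b*, *Sec24b*, *Sec24d*, *Sec16a* and *Sec16b*, with *Sec24a*, lay below 0 in refed liver, between -0.30 and -1.17, and each had a lower CPM in replicate 2 than in replicate 1. Without replicate 2 *Sec24b* went from -0.30 to -0.01, *Sec24d* from -0.64 to -0.04, *Sec16a* from -0.54 to -0.17, *Sec31b* from -1.17 to -0.49 and *Sec24a* from -0.82 to -0.50. With the length correction, which keeps that library, they were -0.27, -0.65, -0.36, -1.33 and -0.58. *Sec16b*, which organizes ER exit sites, was at 182 and 183 CPM in refed WT and at 125 and 81.1 CPM in refed HRD1Alb liver, without overlap (-0.82, adjusted p = 0.0514). Without replicate 2 the difference was -0.55 (adjusted p = 0.0202), and with the length correction -0.84 (adjusted p = 0.0140). *Sec31a*, *Sec23a*, *Sec24c* and *Preb*, the exchange factor that loads SAR1 with GTP, were not called in either genotype comparison, although *Sec23a* reached 0.95 in refed liver without replicate 2 (adjusted p = 0.00312).

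Among the p24 receptors, *Tmed3* moved with both genotype and feeding. It stood at 14.4 and 16.6 CPM in fasted WT, 29.5 and 30.1 CPM in fasted HRD1Alb, 45.9 and 34.7 CPM in refed WT and 69.8 and 96.1 CPM in refed HRD1Alb liver. The 4 groups followed each other without overlap in that order. The genotype difference was 0.94 on the log2 scale in fasted (SE 0.22, adjusted p = 0.0865) and 1.04 in refed liver (SE 0.22, adjusted p = 0.0297), or 0.79 without replicate 2 (adjusted p = 0.0177). *Tmed2* stood at 36.1 and 38.5 CPM in fasted WT, 44.8 and 41.1 CPM in fasted HRD1Alb, 36.9 and 35.2 CPM in refed WT and 53.1 and 57.5 CPM in refed HRD1Alb liver. Its refed difference of 0.62 (SE 0.15, adjusted p = 0.0394) was 0.34 with the length correction (adjusted p = 0.0860), while the fasted one of 0.20 was not called. *Tmed7*, *Tmed9* and *Tmed10* had no called genotype difference, with values between -0.19 and 0.33. Their refed values lay between 0.06 and 0.23 without HRD1Alb refed 2.

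None of the 4 SNAREs was called in any comparison in the edgeR fit of 8 samples. Without HRD1Alb refed 2 edgeR called *Sec22b*, *Gosr2* and *Stx5a* higher in fasted liver (adjusted p = 0.0181, 0.0127 and 0.0225) and *Sec22b* and *Gosr2* in refed liver (adjusted p = 0.0136 and 0.0447). *Gosr2* was then also called for refeeding in WT liver (adjusted p = 0.0370). *Gosr2*, a Golgi SNARE and the most abundant of them on average, stood at 71.5 and 76.2 CPM in fasted WT, 106 and 107 CPM in fasted HRD1Alb, 101 and 90.4 CPM in refed WT and 127 and 86.3 CPM in refed HRD1Alb liver. The fasted genotypes did not overlap (0.53, adjusted p = 0.229) and the refed ones did (0.15, adjusted p = 0.610). The refed value was 0.40 without replicate 2 and -0.03 with the length correction. *Sec22b* and *Stx5a* gave 0.53 and 0.50 in fasted liver, and *Bet1*, a SNARE of ER-derived vesicles, gave -0.39 (adjusted p = 0.254), the lowest fasted value of the members. All 4 had an unadjusted p under 0.05 in fasted liver, 3 of them higher and *Bet1* lower.

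**Figure D4:**
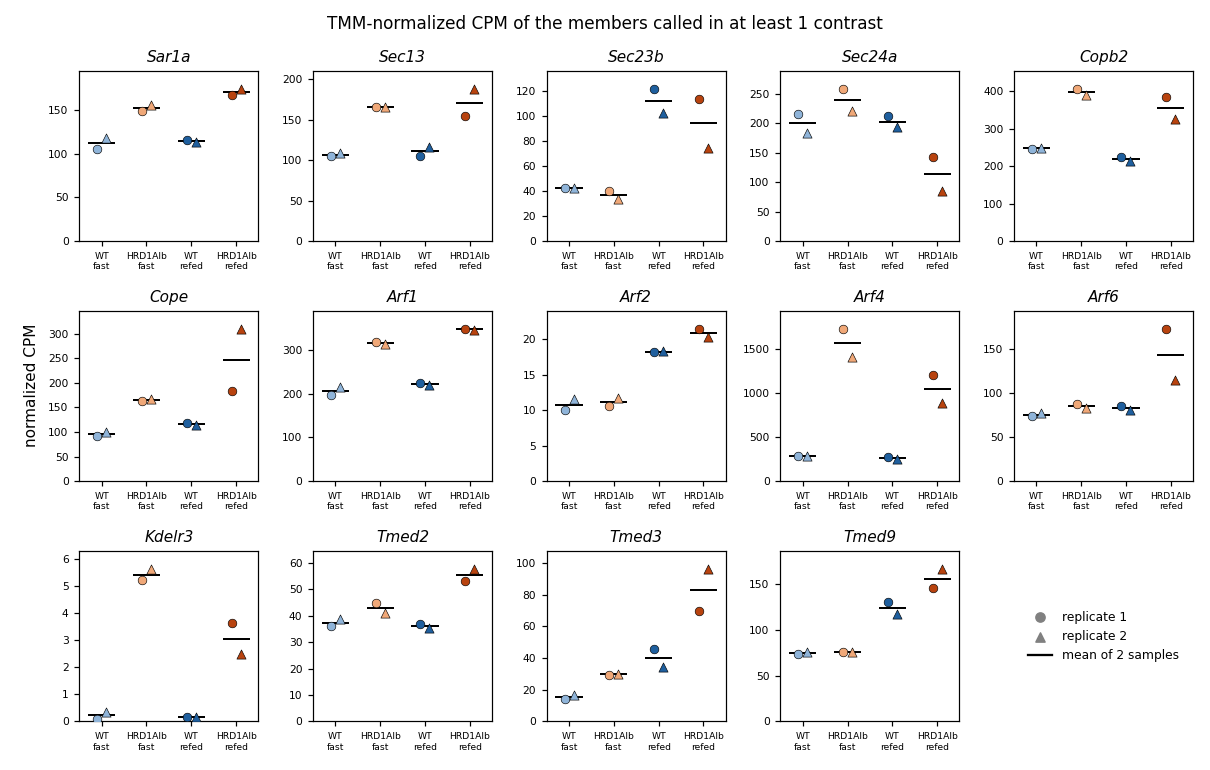
Normalized CPM (vertical axis, from 0, its own scale in each panel) of the 14 members called in at least 1 comparison, by group. Circles and triangles are replicates 1 and 2, and lines are means of 2 samples. All HRD1Alb samples lie above all WT samples for Arf1, Arf4, Copb2, Cope, Kdelr3, Sar1a, Sec13 and Tmed2. All refed samples lie above all fasted ones for Sec23b, Arf2, Tmed3 and Tmed9. Arf6 and Tmed3 separate by genotype within each condition.

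The refeeding comparisons use the same 8 samples as the genotype comparisons, so their values are not independent of those above. In WT liver, 2 members were called higher after refeeding, *Sec23b* and *Tmed3*, against 1.20% of all genes, and edgeR called 0 lower, against 1.41% of all genes. At an unadjusted p under 0.05 it was 6 higher (7.94% of all genes) and 0 lower (8.38%), and DESeq2 called 4 higher (3.46%) and 0 lower (4.12%). In HRD1Alb liver, 4 were called higher, *Arf2*, *Sec23b*, *Tmed3* and *Tmed9* (5.43% of all genes), and 1 lower, *Sec24a* (5.05% of all genes), with 10 higher (17.2%) and 4 lower (14.5%) at an unadjusted p under 0.05. When HRD1Alb refed 2 was left out, 7 were called higher (1566 of 14642 genes) and 3 lower (1318) in HRD1Alb liver, and 10 higher (1240) and 2 lower (1253) in WT liver. The median over the members was 0.09 in WT and 0.00 in HRD1Alb liver. The 36 members not called in HRD1Alb liver ranged from -1.99 for *Sec31b* (adjusted p = 0.0649) to 0.79 for *Arf5*. With the length correction *Sec31b* (-2.02, adjusted p = 0.0446) and *Sar1b* (-0.84, adjusted p = 0.0110) were called lower there. Without HRD1Alb refed 2 these 2 values were -1.30 and -0.76. Values without overlap numbered 19 higher (30.8% of all genes) and 8 lower (29.6%) in WT, and 15 higher (29.2%) and 13 lower (29.5%) in HRD1Alb liver.

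*Sec23b*, an inner coat subunit that recruits SEC24 and switches off SAR1, stood at 42.8 and 42.1 CPM in fasted WT and 122 and 103 CPM in refed WT liver. In HRD1Alb liver it stood at 39.8 and 33.4 CPM fasted and 114 and 74.8 CPM refed. All 4 refed libraries lay above all 4 fasted ones. The log2 change with refeeding was 1.40 (SE 0.23, adjusted p = 0.0336) in WT and 1.36 (SE 0.23, adjusted p = 0.0162) in HRD1Alb liver, and it was 1.63 in the latter without replicate 2 (adjusted p = 0.00103). Its paralog *Sec23a* gave -0.69 in WT and -0.53 in HRD1Alb liver and was not called. Without HRD1Alb refed 2 these were -0.69 (adjusted p = 0.00466) and -0.04. Per kb, *Sec23a* stood at 47.0 and *Sec23b* at 6.74 CPM in fasted WT liver, and at 29.1 and 17.8 CPM in refed WT liver.

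*Tmed3* rose with refeeding by 1.38 (SE 0.22, adjusted p = 0.0335) on the log2 scale in WT and by 1.48 (SE 0.22, adjusted p = 0.0119) in HRD1Alb liver, from the values given above. *Tmed9*, a p24 protein of the early secretory route, stood at 73.4 and 75.6 CPM in fasted WT, 75.2 and 75.5 CPM in fasted HRD1Alb, 130 and 117 CPM in refed WT and 146 and 166 CPM in refed HRD1Alb liver. The fasted genotypes were nearly equal, and all refed libraries lay above all fasted ones. The change was 0.73 in WT (SE 0.15, adjusted p = 0.0542), just short of the call, and 1.05 in HRD1Alb liver (SE 0.15, adjusted p = 0.0111).

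*Arf2*, a class I ARF close to *Arf1*, stood at 9.98 and 11.5 CPM in fasted WT, 10.6 and 11.7 CPM in fasted HRD1Alb, 18.2 and 18.3 CPM in refed WT and 21.4 and 20.3 CPM in refed HRD1Alb liver. Its samples split by feeding without overlap, with a change of 0.76 in WT (SE 0.16, adjusted p = 0.0652) and 0.91 in HRD1Alb liver (SE 0.16, adjusted p = 0.0199). How reads that match several ARF copies were counted is not given in the sources used here. *Sec24a*, a cargo-binding subunit of the inner coat, stood at 217 and 185 CPM in fasted WT, 259 and 222 CPM in fasted HRD1Alb, 213 and 193 CPM in refed WT and 144 and 85.8 CPM in refed HRD1Alb liver. Both refed HRD1Alb libraries lay below the other 6. The refeeding change in HRD1Alb liver was -1.07 (SE 0.25, adjusted p = 0.0418), or -0.74 without replicate 2 (adjusted p = 0.0178), and in WT liver it was 0.02. The 4 called increases of HRD1Alb liver were called without replicate 2 as well.

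**Figure D5:**
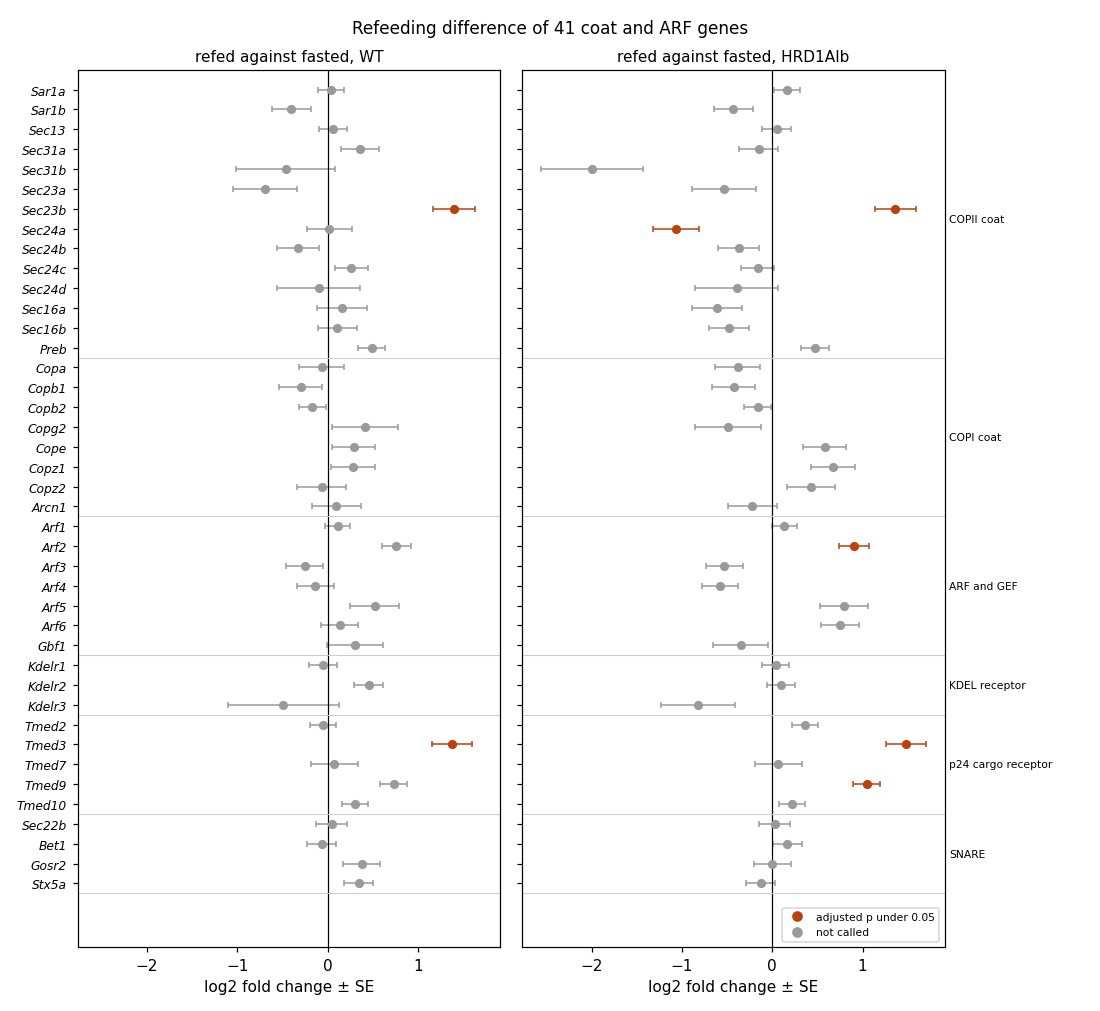
Log2 fold change of refed against fasted liver ± SE (horizontal axis) for each member, by functional group, in WT (left) and HRD1Alb liver (right), from the edgeR model of 8 samples. Sec23b and Tmed3 are called in both genotypes, at 1.36 to 1.48, Arf2 and Tmed9 are called in HRD1Alb liver, and Sec24a at -1.07 is the 1 member called lower.

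Whether the genotype difference itself changed with refeeding was tested by the interaction term. edgeR called 0 of the 41 members in either direction, as it did for all 14328 genes (0%). At an unadjusted p under 0.05, 0 members were higher and 1, *Sec24a*, was lower (-1.08, SE 0.36, adjusted p = 0.561), against 632 higher (4.41%) and 577 lower (4.03%) of all genes. DESeq2 also called 0 members, with 57 higher (0.398%) and 48 lower (0.335%) among all genes. For *Arf4* the interaction was -0.45 (SE 0.28) and for *Kdelr3* -0.33 (SE 0.76), so that a difference between conditions in their genotype response was not detected. Leaving out HRD1Alb refed 2 gave -0.25 and -0.09, and 0 members were called. Without HRD1Alb refed 1, which leaves the length-shifted library alone in its group, 5 members were called higher and 18 lower, against 2249 higher (15.4%) and 2629 lower of 14590 genes.

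Beyond the members, a list of 81 other genes of the ER-Golgi route was examined, of which 76 are in the files and 75 were tested. In fasted liver edgeR called 0 of the 75 in either direction, with 8 higher (10.7% of the list, against 10.9% of all genes) and 3 lower (4.00% against 7.43%) at an unadjusted p under 0.05. DESeq2 called 2 higher and 1 lower, and without HRD1Alb refed 2 edgeR called 12 higher and 8 lower. The list's median was -0.04, against 0.24 over the members. In refed liver 0 were called higher, against 7.09% of all genes, and DESeq2 called 6. At an unadjusted p under 0.05, 11 were higher (14.7% of the list, against 18.8% of all genes) and 5 lower (6.67% against 14.5%). With the length correction 0 were called higher (8.04% of all genes) and 5 lower (10.7%). Without that correction 1 was called lower, against 4.84% of all genes. It was *Sec22c*, an ER protein of the SEC22 family, at 19.9 and 17.6 CPM in WT and 10.6 and 6.88 CPM in HRD1Alb liver (-1.09, SE 0.22, adjusted p = 0.0290, and -0.82 without replicate 2, adjusted p = 0.00601). Refeeding in WT liver gave 1 call, lower (1.33% of the list, against 1.41% of all genes). *Tmed5*, a p24 protein, fell from 435 and 440 CPM to 182 and 149 CPM (-1.40, SE 0.16, adjusted p = 0.0154). In HRD1Alb liver 5 were called higher after refeeding, *Arfgap2*, *Lman2*, *Mcfd2*, *Rint1* and *Tfg* (6.67% of the list, against 5.43% of all genes), and 3 lower (4.00% against 5.05%). The latter were *Sec22c* (-1.81, adjusted p = 0.00782), *Golgb1*, which encodes the golgin giantin (-1.25, adjusted p = 0.0486), and *Tmed5* (-1.19, adjusted p = 0.00900). The length correction called 8 higher (8.07% of all genes) and 5 lower (6.33%) with refeeding in HRD1Alb liver. In WT liver it called 0 higher (2.43%) and 2 lower (2.43%). *Golgb1* was at 219 and 222 CPM in fasted and 124 and 61.4 CPM in refed HRD1Alb liver, the lowest value again in replicate 2. Without that library its refeeding value was -0.83 (adjusted p = 0.0153), and those of *Sec22c* and *Tmed5* were -1.54 and -1.14.

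Regulators of the unfolded protein response were read beside the members. *Ddit3*, which encodes CHOP, stood at 6.66 and 5.62 CPM in fasted WT, 15.5 and 14.8 CPM in fasted HRD1Alb, 16.1 and 11.3 CPM in refed WT and 251 and 242 CPM in refed HRD1Alb liver, and was called higher in HRD1Alb in fasted (1.303, adjusted p = 0.0395) and refed liver (4.17, adjusted p = 0.00126). *Atf4* stood at 119 and 124, 120 and 154, 136 and 182, and 243 and 269 CPM in the same order, without a genotype call (0.18 and 0.69, adjusted p = 0.716 and 0.0676). *Xbp1* stood at 203 and 241 CPM in fasted WT, 174 and 178 CPM in fasted HRD1Alb, 356 and 351 CPM in refed WT and 297 and 280 CPM in refed HRD1Alb liver, and its genotype values of -0.33 and -0.29 were not called. Gene counts do not separate its spliced form. *Atf6*, *Ern1*, *Creb3l1*, *Creb3l2* and *Creb3l3* had no genotype call, with fasted values between -0.38 and 0.82 and refed values between -0.85 and 1.41. Without HRD1Alb refed 2 edgeR called *Creb3l3* lower in refed liver (-0.49, adjusted p = 0.0349), with the other 4 between -0.17 and 1.82, and with the length correction it called *Xbp1* lower (-0.48, adjusted p = 0.0484). The part of any regulator in the member values was not tested.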

How the data were processed

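The authors deposited raw counts per gene symbol, as whole numbers, 1 file for each of 8 liver samples. The paper names ERANGE for counting, whereas the submitters' processing notes list cutadapt, STAR, HTSeq and DESeq2 on mm10 without versions, so the counting tool, its strand setting and its annotation are not settled. The tests used edgeR 4.0.16 under R 4.3.3, with filterByExpr (minimum count 10, total 15), TMM factors from 0.837 to 1.22, and 1 quasi-likelihood model with 4 groups (common dispersion 0.0573, residual degrees of freedom 4). P-values of the 5 contrasts were Benjamini-Hochberg adjusted across 14328 genes. The SE was derived from the F statistic, as the size of the log2 fold change over the root of F. Named were all members called in any contrast, the most abundant member of a group without calls, the 3 largest called genes of the wider list per contrast, *Syvn1* and the regulators. *Copg*, the members without a call and the 5 genes of the wider list called higher with refeeding in HRD1Alb liver were named after their values were seen.

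Exon lengths (merged exons, GENCODE M21, GRCm38) were matched by symbol for 90.5% of tested genes, and the length offset was a loess curve (span 0.5) of each library against length. Alternatives were RLE or total-count scaling, no filter, DESeq2 1.42.0, limma-trend 3.58.1, only 4 samples, a replicate block, the length offset with and without the block, and each sample left out. The counts without overlap, and the values of the genes that are no members, were repeated without HRD1Alb refed 2 after the data were seen, the latter also with the length offset. Statistical steps were checked on simulated counts with a lower dispersion than these data, so calling at their noise was not checked. No pass limit was set for the fits of a simulated length-shifted library. The members and lists were chosen with earlier results of these data known. Protein sequences were not used here. Plots were made in matplotlib 3.10.9 (Python 3.11.15).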

Additional observations from a re-analysis of the deposited data

Results flagged for a closer look

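5 members moved in opposite directions in a pair of matched comparisons, with every sample of one comparison on one side and every sample of the other on the opposite side. Between the genotype comparisons these were *Sec31b* (log2 fold change 0.35 in fasted and -1.17 in refed liver), *Sec24a* (0.26 and -0.82) and *Sec16a* (0.23 and -0.54). Such opposite moves occurred in 3 of 41 members and in 5.70% of the 14328 genes tested. Between the refeeding comparisons they were *Sec16b* (0.11 in WT and -0.48 in HRD1Alb liver) and *Stx5a* (0.34 and -0.13), 2 of 41 members against 5.21% of all genes. The difference itself was tested by the interaction term of the edgeR model and was not called for any of the 5, with adjusted p-values of 0.606 for *Sec31b*, 0.561 for *Sec24a*, 0.606 for *Sec16a*, 0.610 for *Sec16b* and 0.601 for *Stx5a*. In each of these 5 genes the CPM of HRD1Alb refed 2 was below that of HRD1Alb refed 1. Without that library the refed genotype difference was -0.49 for *Sec31b*, -0.50 for *Sec24a* and -0.17 for *Sec16a*, the refeeding change in HRD1Alb liver was -0.20 for *Sec16b* and -0.05 for *Stx5a*, and each kept its sign. With 2 samples in a group, no test for a single deviating sample applies.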

How the results depend on the processing

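No log2 fold change of a called member reversed its sign under any alternative in a comparison in which it was called. The number of members called higher in fasted liver, 2, was 7 with DESeq2, 9 with scaling by total counts and 14 when only the 4 samples of the comparison were fitted. All genes called higher rose alongside, from 132 to 632, 840 and 1152. The number called higher in refed liver, 10, was 6 with the replicate block, 5 with the length offset, 5 with the length offset and replicate block, and 0 with only 4 samples. The number called lower in refed liver, 0, was 1 with RLE scaling, 1 without the filter on low counts, 1 with limma-trend, 2 with DESeq2, 2 with the replicate block, 3 with the length offset, and 4 with the length offset and block. Refeeding in WT, with 2 higher and 0 lower, gave 4 higher with DESeq2, 4 with the length offset, and 6 higher and 1 lower with 4 samples. Refeeding in HRD1Alb, with 4 higher and 1 lower, gave 7 higher with DESeq2 and 0 higher with 4 samples. Its lower count was 0 with total counts, 0 with 4 samples, 2 without the filter, 2 with limma-trend, 3 with DESeq2, 3 with the length offset, and 4 with the offset and block. The causes of these shifts were not tested. The replicate numbers did not pair the samples (r between same-numbered samples 0.0161 to 0.179, mean 0.0689).

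With the length offset 1044 of all genes were called higher and 1388 lower in refed liver, against 1016 and 693 without it. With each sample left out in turn, and a lone sample assumed to vary like the other groups, the members called higher and lower ranged from 0 to 14 and 0 to 0 in fasted liver and from 0 to 16 and 0 to 14 in refed liver. They ranged from 0 to 10 and 0 to 2 for refeeding in WT, from 0 to 11 and 0 to 17 for refeeding in HRD1Alb, and from 0 to 5 and 0 to 18 for the interaction. Without HRD1Alb refed 1 or HRD1Alb refed 2, 14 members were called higher in fasted liver, with 1436 and 1414 of all genes, and without any 1 fasted library 0 were. Total-count scaling put 94.7% of the called genes on the higher side in fasted and 87.5% in refed liver, the length offset 43.5% and 42.9%, and the reported fit 68.0% and 59.4%. For *Kdelr3*, with 4 to 15 counts in WT libraries, depth limits the size of the fold.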
